A study of Mus musculus with 6 samples.

Results

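The later step of the response to lipopolysaccharide (LPS, a component of the outer membrane of Gram-negative bacteria) was described in macrophages without Akirin2, as the array at 4 h of LPS minus the array at 2 h. These are 2 of the 6 arrays of the series, with 1 array per condition, so this difference has no replicate check and no test of its own. Each gene was represented by the probe set with the highest mean over the 6 arrays among probe sets with a single gene symbol, and 13587 of 18194 genes were kept because any array reached its own median over all probe sets, called the floor here. The cells were macrophages washed from the peritoneal cavity after thioglycollate, which recruits monocytes that mature there. The study compared wild-type mice with LysM-Cre+;Akirin2fl/fl mice, called Akirin2 KO here, in which Cre made from the lysozyme locus of myeloid cells deletes the floxed Akirin2 gene. All mice had a mixed C57BL/6 and 129Sv background, and macrophages of each genotype were unstimulated (0 h) or given 100 ng/ml LPS for 2 or 4 h. Neither the age nor the number of the mice is in the labels, and it is not stated whether the 3 times of a genotype share animals.

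LPS is sensed by TLR4, which signals first through MyD88 to NF-kB and MAP kinases and then through TRIF to IRF3. Early genes such as Tnf and Cxcl1 respond at once, whereas a later set follows from newly made products, chiefly interferon-beta, which acts back on the cell through its receptor and the ISGF3 complex to switch on interferon-stimulated genes. Akirin2 is a small nuclear protein known to link NF-kB and IkB-zeta to the SWI/SNF chromatin remodelling complex at a subset of inflammatory genes such as Il6 and Il12b.

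The probe set of Akirin2 read 5.18, 5.54 and 4.91 (log2 intensity) in the Akirin2 KO arrays at 0, 2 and 4 h, and 7.43, 7.47 and 7.33 in wild-type. All 3 KO arrays were thus below all 3 wild-type arrays, and the KO difference of 4 h minus 2 h was -0.63. Where this probe set lies relative to the deleted part is not known here, and a second probe set near background differed by 0.06. Akirin1, the paralogue, read 10.05 at 2 h and 9.99 at 4 h. Lyz2, the locus that carries Cre, read 12.01 and 12.05. Among macrophage markers, Csf1r (12.57 and 12.69), Cd68 (10.79 and 10.71) and Adgre1 (8.56 and 8.78) were high on both KO arrays. Others were not: Itgam read 3.38 and 3.06, near background, Cd163 2.99 and 3.50, and Mertk 4.97 and 3.88. Mean log2 levels of the marker lists of T and NK cells (8 genes, 3.10 to 3.36 over the 6 arrays), mast cells (8 genes, 2.97 to 3.14), eosinophils (5 genes, 3.04 to 3.16) and dendritic cells (6 genes, 3.09 to 3.29) lay close to the array medians of 3.18 to 3.23. B cell markers averaged 3.57 and 3.64 on the KO arrays at 2 and 4 h, neutrophil markers 4.25 and 4.38, and mesothelial and fibroblast markers 4.76 and 4.50. Single genes lay well above such means. The collagen genes Col1a1, Col1a2 and Col3a1 read 8.03 and 7.96, 7.01 and 6.46, and 5.96 and 6.04. Ighm, of B cells, read 5.20 and 5.60, whereas Dcn, of fibroblasts, read 4.24 and 4.07. Among neutrophil markers S100a8 read 8.25 and 8.80 and S100a9 6.44 and 6.34, whereas Camp read 2.79 and 3.30. The 2 KO arrays at 2 and 4 h had the highest correlation of any pair (r = 0.989 over all probe sets, against 0.958 for the least alike pair). The 3′ minus 5′ signal of the Actb control probes was 4.50 and 4.36 on these arrays.

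Most genes read alike at 2 and 4 h in Akirin2 KO macrophages. The median difference over the 13587 genes was 0.02, and 12322 genes (90.7%) lay within 0.5 of 0 on the log2 scale. By a size rule of 2-fold, 137 genes (1.01%) were higher at 4 h and 69 (0.508%) were lower, with a range from 2.93 for Rtp4 down to -2.71 for Zdhhc14. With arrays centred on their gene medians the counts were 112 and 96, and with all probe sets of a gene averaged they were 88 and 29. The rule has a sharp edge: Hsd17b7, at 1.002, and Pag1, at 1.002, were just inside it and Sass6, at 0.985, just outside, while among lower genes Mxi1, at -1.009, was inside and Dhrs3, at -0.999, outside. With genes split into 4 classes of equal size by mean level, 1 of the 137 higher genes lay in the lowest class, 20 and 73 in the next ones and 43 in the highest. In bulk RNA, fewer cells of a type and less RNA per cell cannot be told apart.

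The same step in wild-type macrophages, measured on 2 other arrays, was past the size rule for more genes, with 183 higher (1.35%) and 146 lower (1.07%). Of the 137 genes higher in KO, 98 were also higher by 2-fold in wild-type (0.721% of all genes, 71.5% of the KO list and 53.6% of the wild-type list). Of the 69 lower genes, 43 were shared (0.316% of all genes, 62.3% of the KO list and 29.5% of the wild-type list). In sign, 136 of the 137 and 68 of the 69 went the same way in wild-type, and no gene passed 2-fold in opposite directions. Across all genes the KO and wild-type steps had a Pearson r of 0.574 and a Spearman rho of 0.383 (n = 13587 genes, which are not independent replicates). A limma fit over all 6 arrays, with time and genotype as additive terms, asked which genes differed between 4 and 2 h over both genotypes. At an adjusted p under 0.05 (Benjamini-Hochberg), 212 genes were higher at 4 h (1.56%) and 151 were lower (1.11%), among them 119 of the 137 and 56 of the 69. That fit has 2 residual degrees of freedom and includes the KO arrays, so it is a test of the step common to both genotypes and not of KO alone. In it the 2 genotypes stand in for replicates, so its p-values do not measure the spread between mice. Without the 0 h arrays it called 486 genes higher and 438 lower. The 137 and 69 genes were picked on KO arrays that this fit also uses, so their calls in it are not independent support.

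**Figure D1:**
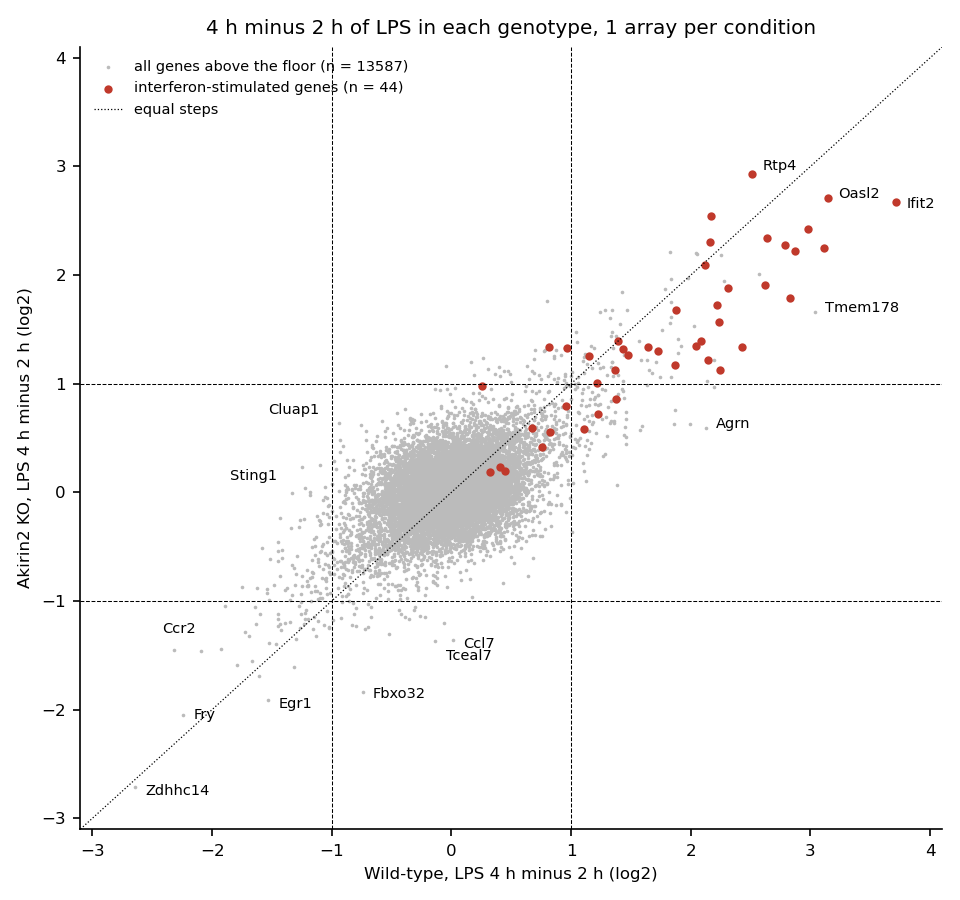
Each point is 1 gene above the floor (n = 13587), with the wild-type 4 h minus 2 h difference on the x axis and the Akirin2 KO difference on the y axis, both in log2 units from 1 array per condition. Red points are the 44 interferon-stimulated genes, dashed lines mark 2-fold, and the dotted line marks equal steps; no gene lies past 2-fold in opposite directions, and 36 of the 44 red points lie right of the dotted line.

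Interferon-stimulated genes were frequent at the upper end of the KO step. This list, like the others, was chosen with earlier results of these data known, so its shares describe the list and are not a test. Of 44 listed genes above the floor, 33 were at least 2-fold higher at 4 h and none was lower, against 1.01% and 0.508% of all genes. These 33 were 24.1% of the 137 higher genes. All 44 lay above 0 (53.1% of all genes did, and 49.4% in wild-type), with a median of 1.33 and a range from 0.18 for Irf1 to 2.93 for Rtp4. The limma fit called 36 of the 44 higher and none lower. Of the 20 largest differences upward in KO, 12 were genes of this list, and all 20 passed 2-fold in wild-type and the limma threshold (adjusted p from 0.000625 to 0.0106). Because these 20 were picked on KO arrays that the fit also uses, its p-values are not independent support for them.

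Rtp4, an interferon-induced chaperone of receptors, read 4.02, 4.89 and 7.82 in KO at 0, 2 and 4 h, and 5.43, 6.79 and 9.31 in wild-type. Its KO value at 4 h was 7.63 times that at 2 h, the largest ratio of any gene. Oasl2, a relative of the 2′-5′ oligoadenylate synthetases, read 4.12, 4.08 and 6.79 in KO and 5.15, 5.21 and 8.36 in wild-type. In both genotypes it was flat at 2 h and high at 4 h, and limma put its rise at 2.93 (SE 0.17, adjusted p = 0.000625). Ifit2, which binds viral RNA, read 3.25, 3.07 and 5.74 in KO and 4.36, 4.12 and 7.84 in wild-type. Its KO step was 2.68 and its wild-type step 3.72, the latter the largest in that genotype. Ifit1, which binds viral RNA that lacks host cap methylation, read 3.92, 6.89 and 9.43 in KO and 6.14, 8.61 and 10.78 in wild-type. Unlike the former pair it was already high at 2 h, and its KO step of 2.54 compared with 2.17 in wild-type (limma rise 2.36, SE 0.21, adjusted p = 0.0018). Usp18, the protease that removes ISG15 and restrains the interferon receptor, read 3.19 at 2 h and 5.62 at 4 h in KO, a difference of 2.43 against 2.98 in wild-type.

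Other effectors of this group gave steps of similar size. Mx1, a dynamin-like antiviral GTPase, differed by 2.34, Zbp1, a sensor of Z-form nucleic acids, by 2.28, and Cmpk2, a mitochondrial nucleotide kinase, by 2.25. The interferon-inducible GTPases Igtp and Ifi47 differed by 2.302 and 2.225, Xaf1, an antagonist of the inhibitor of apoptosis XIAP, by 2.09, and Phf11d by 1.91. A second Xaf1 probe set differed by 2.74 in KO but by 0.28 in wild-type, so the 2 probe sets disagreed on wild-type. Rsad2, or viperin, read 6.75, 8.28 and 10.002 in KO, and Ifit3 read 3.37, 3.26 and 5.05. Irf7, the factor that amplifies interferon production, read 3.19, 3.05 and 4.37 in KO and 3.63, 3.92 and 5.36 in wild-type. Gbp2, a guanylate-binding protein, read 4.89, 6.65 and 7.99. By contrast Irf1 read 4.89, 7.18 and 7.36 in KO, so nearly all of its distance from 0 h was present at 2 h; its step of 0.18 did not pass the limma threshold (adjusted p = 0.595). Over the list the median of 2 h minus 0 h in KO was 0.17, beside 1.33 for 4 h minus 2 h; the 2 differences share the KO array at 2 h.

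**Figure D2:**
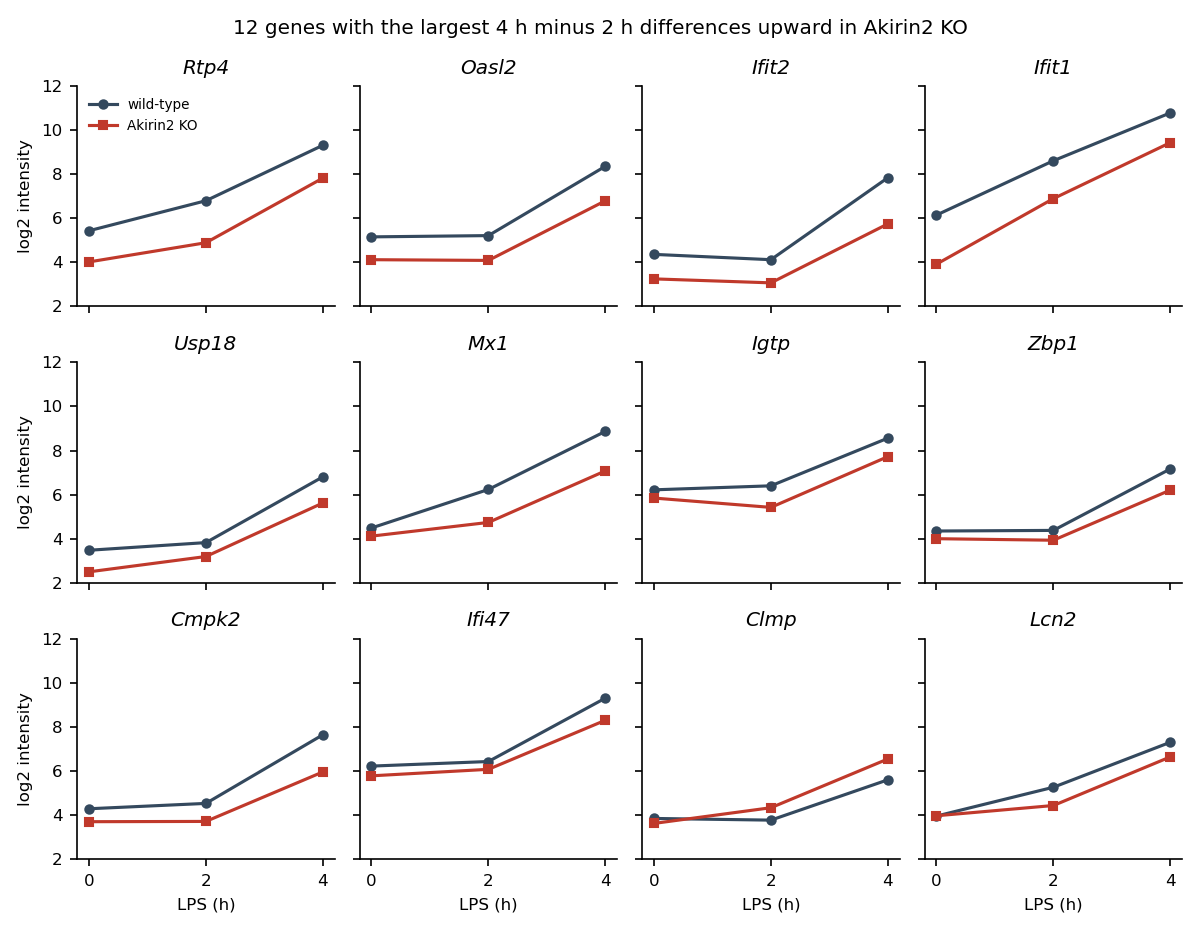
Log2 intensity (y axis) at 0, 2 and 4 h of LPS (x axis) for the 12 genes with the largest 4 h minus 2 h differences upward in Akirin2 KO; dark circles are wild-type and red squares Akirin2 KO, with 1 array per point. Of the 12 panels 10 show interferon-stimulated genes, and in these the KO array at 4 h lies below the wild-type array at 4 h.

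The interferon-stimulated genes had a smaller step in KO than in wild-type. Their median step was 1.33 in KO and 1.88 in wild-type, and 36 of 44 steps were smaller in KO, against 46.5% of all genes. The median of the differences between steps was -0.32, with 0.02 over all genes. In 4 genes, named after their values were seen, the KO step was smaller by at least 2-fold (0.324% of all genes were): Oas3 (1.12 against 2.24), Herc6 (1.33 against 2.43), Ifit2 and Ifit3. In 8 genes the KO step was the larger one, as for Irf9, a subunit of ISGF3 that was also picked after its values were seen (1.34 against 0.82). KO arrays lay below wild-type in 40 of the 44 at 2 h (49.1% of all genes) and in 42 at 4 h (45.5%), with medians of -0.52 and -0.99. Most of the 44 already read lower in KO at 0 h, before LPS, with differences of -2.23 for Ifit1, -1.41 for Rtp4 and -1.11 for Ifit2. The exceptions, higher in KO at 0 h, were Ifit3, Mx2, Dhx58, Iigp1, Trim30a, Eif2ak2, Slfn4 and Slfn5. A second limma fit, of the KO minus wild-type difference at 4 h against that at 0 and 2 h, called none of the 44 (adjusted p = 0.69 for Ifit2), with a single residual degree of freedom.

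**Figure D3:**
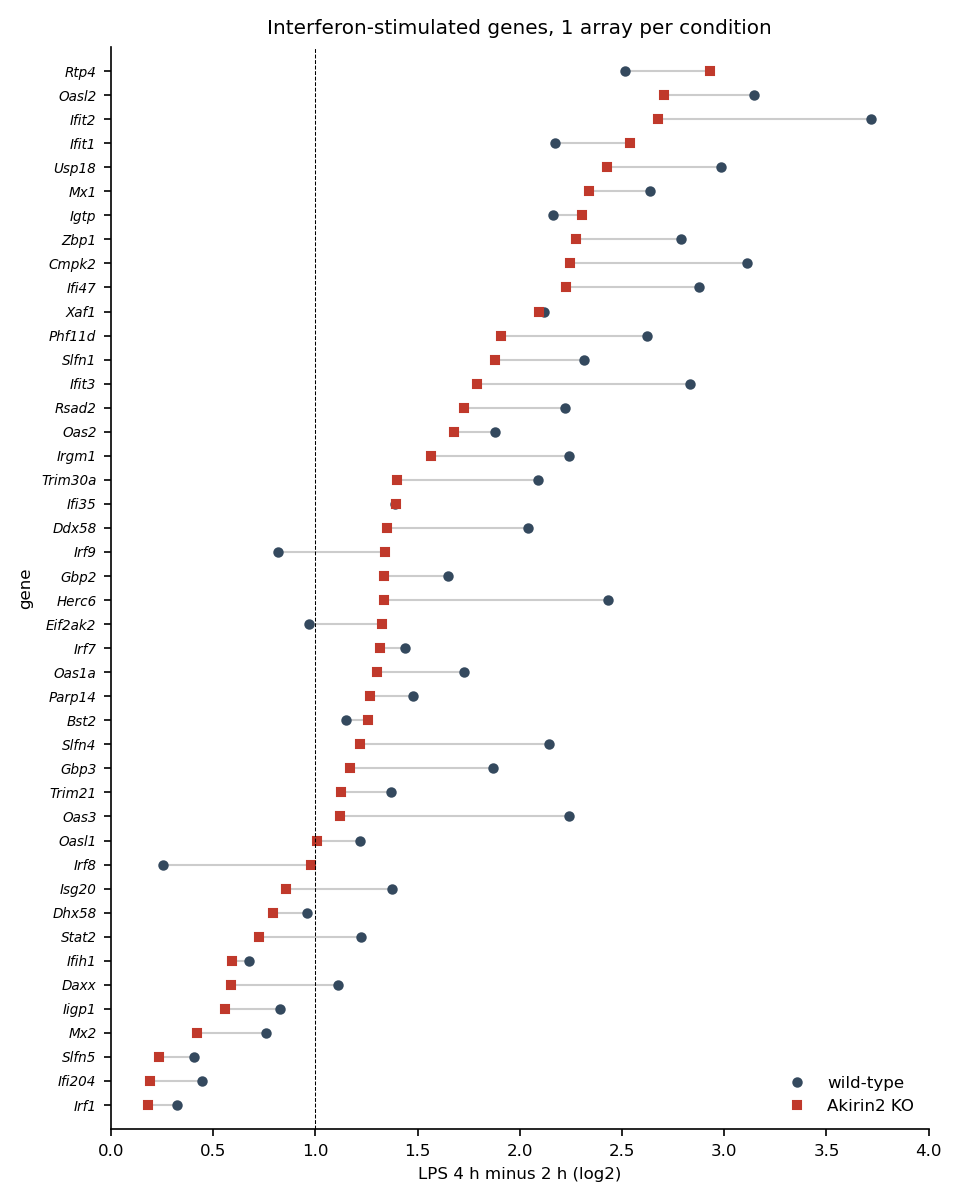
LPS 4 h minus 2 h (log2, x axis) for the 44 interferon-stimulated genes (y axis), with red squares for Akirin2 KO and dark circles for wild-type, 1 array per condition; the dashed line marks 2-fold. All squares lie above 0, between 0.18 and 2.93, and 36 of 44 lie left of their circle.

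Promoters of genes at both ends of the KO step are shown because 33 of the 137 higher genes belonged to a single pathway. Each runs from 250 bases before to 50 bases after the annotated start (RefSeq, GRCm38.p6), printed 5′ to 3′ on the strand of the gene, and capitals mark matches to 4 motifs searched on both strands: the core of the interferon-stimulated response element (ISRE, GAAANNGAA), a kappaB site (GGGANTTTC), the antioxidant response element (ARE, TGACNNNGC) and the cyclic AMP response element (CRE, TGACGTCA). Only promoters that held a match were printed. Ifit1 and Igtp were taken from interferon-stimulated genes with an ISRE match. The other promoters were taken from the largest rises and falls with a match to any motif. That each printed promoter held a match was thus fixed by the choice and is not a result. The windows are Ifit1 at chr19:34640639-34640938 (plus strand), Igtp at chr11:58199306-58199605 (plus), Oasl2 at chr5:114896684-114896983 (plus), Trim30d at chr7:104507800-104508099 (minus), Sirpb1a at chr3:15426378-15426677 (minus) and Errfi1 at chr4:150854820-150855119 (plus).
Ifit1: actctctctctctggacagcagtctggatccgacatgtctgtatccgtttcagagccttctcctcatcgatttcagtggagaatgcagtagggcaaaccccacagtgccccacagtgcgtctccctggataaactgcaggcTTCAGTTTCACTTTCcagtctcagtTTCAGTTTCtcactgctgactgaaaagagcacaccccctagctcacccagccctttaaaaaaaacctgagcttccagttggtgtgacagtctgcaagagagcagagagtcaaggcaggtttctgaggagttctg
Igtp: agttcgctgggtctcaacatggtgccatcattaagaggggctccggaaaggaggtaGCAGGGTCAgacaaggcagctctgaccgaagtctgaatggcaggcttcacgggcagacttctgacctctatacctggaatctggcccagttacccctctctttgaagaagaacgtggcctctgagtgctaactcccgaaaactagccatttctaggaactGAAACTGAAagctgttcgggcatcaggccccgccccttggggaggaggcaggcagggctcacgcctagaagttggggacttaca
Oasl2: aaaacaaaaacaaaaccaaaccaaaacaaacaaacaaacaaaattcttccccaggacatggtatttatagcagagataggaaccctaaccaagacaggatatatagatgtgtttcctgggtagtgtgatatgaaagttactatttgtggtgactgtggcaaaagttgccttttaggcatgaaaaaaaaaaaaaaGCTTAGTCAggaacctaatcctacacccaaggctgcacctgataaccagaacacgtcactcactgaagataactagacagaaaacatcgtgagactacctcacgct
Trim30d: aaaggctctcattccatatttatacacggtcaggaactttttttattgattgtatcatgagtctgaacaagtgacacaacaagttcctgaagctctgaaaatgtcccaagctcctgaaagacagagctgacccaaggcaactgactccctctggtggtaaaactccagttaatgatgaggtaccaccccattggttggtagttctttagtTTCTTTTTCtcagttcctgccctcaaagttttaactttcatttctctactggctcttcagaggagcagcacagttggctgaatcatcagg
Sirpb1a: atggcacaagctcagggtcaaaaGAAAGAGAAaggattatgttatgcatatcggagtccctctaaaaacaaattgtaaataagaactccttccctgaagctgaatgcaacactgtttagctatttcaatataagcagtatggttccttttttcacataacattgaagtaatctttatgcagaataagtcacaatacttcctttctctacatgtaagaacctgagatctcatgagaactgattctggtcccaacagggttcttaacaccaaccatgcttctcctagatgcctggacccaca
Errfi1: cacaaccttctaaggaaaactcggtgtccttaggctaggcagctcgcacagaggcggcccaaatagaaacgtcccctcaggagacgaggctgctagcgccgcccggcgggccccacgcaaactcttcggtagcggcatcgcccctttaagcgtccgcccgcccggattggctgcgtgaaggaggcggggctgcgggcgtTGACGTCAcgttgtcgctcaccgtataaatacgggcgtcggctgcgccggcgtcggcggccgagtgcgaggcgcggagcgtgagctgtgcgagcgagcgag
Ifit1 held 3 ISRE matches, at 109, 103 and 84 bases before its start, all on the opposite strand and the first pair overlapping. Igtp held an ISRE match 34 bases and an ARE match 194 bases before its start, Oasl2 an ARE match at 56 bases, and Trim30d an ISRE match at 40 bases. Among genes lower at 4 h, Sirpb1a held an ISRE match at 227 bases and Errfi1 a CRE match at 51 bases. An ISRE match was present in 30 of 107 higher genes with a promoter in the table (28.0%), in 4 of 47 lower genes (8.51%), in 8.67% of genes above the floor and in 8.56% of all 32851 promoters. Of the interferon-stimulated genes with a promoter, 17 of 34 held one. Matches to ARE, CRE and kappaB were present in 16.8%, 1.87% and 1.87% of higher genes, in 19.1%, 4.26% and 0% of lower genes, and in 16.8%, 3.32% and 1.28% of genes above the floor. Over all promoters the shares were 12.4%, 1.79% and 1.11%. A match describes letters in the window and not a bound site.

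Of the 20 largest differences upward in KO, 8 were genes outside the interferon list, with varied functions. The list does not hold every interferon-induced gene, and whether interferon induces any of the 8 was not tested. Lcn2, or lipocalin 2, which binds bacterial siderophores, read 3.97, 4.43 and 6.64 in KO and 3.95, 5.26 and 7.30 in wild-type. Its KO step was 2.21 and its wild-type step 2.04, and KO minus wild-type was -0.83 at 2 h and -0.66 at 4 h. Hp, or haptoglobin, which binds free haemoglobin, read 4.53, 5.63 and 7.60 in KO and 4.05, 4.75 and 6.73 in wild-type. Here KO was the higher genotype at every time, and the steps were 1.97 and 1.98. Ptges, the inducible prostaglandin E synthase, read 3.11, 6.90 and 8.86 in KO and 4.23, 6.95 and 8.79 in wild-type. Its 3 probe sets differed by 1.91 to 1.96 in KO. Clmp, a cell adhesion molecule, read 3.62, 4.33 and 6.54 in KO against 3.84, 3.77 and 5.60 in wild-type. A second Clmp probe set differed by 1.92 in KO but by 0.36 in wild-type. Ak4, a mitochondrial adenylate kinase, differed by 2.19, Slco3a1, an organic anion transporter, by 2.19, Rnf213, a ubiquitin ligase, by 2.01, and Trim30d by 1.94. Probe sets of Ak4 and Slco3a1 that were not used differed by less, with 0.53 as the largest for Ak4 and 1.10 for Slco3a1.

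Of 19 effector genes of activated macrophages, 4 were at least 2-fold higher in KO at 4 h (1.01% of all genes) and 1 was lower, with a median of 0.47. Beside Lcn2 and Ptges these were Ptx3, a soluble pattern recognition protein, at 3.68, 4.56 and 6.33 in KO (step 1.76 against 0.80 in wild-type), and Slc7a2, an arginine transporter, at 5.05, 7.61 and 8.96. The lower gene was Arg1, arginase 1, at 8.60, 7.87 and 6.72 in KO and 8.98, 8.14 and 6.99 in wild-type, with steps of -1.15 and -1.14. Acod1, which makes itaconate, and Ptgs2, cyclooxygenase 2, had reached 11.96 and 9.60 at 2 h in KO and stood at 11.94 and 9.64 at 4 h. Among 7 genes of the IkB-zeta list Lcn2 alone was past 2-fold. Il6 read 3.12, 5.39 and 5.41 in KO against 3.20, 6.97 and 7.13 in wild-type, Il12b read 2.93, 3.003 and 3.16 against 3.06, 4.19 and 3.89, and Csf3 stayed near background on all arrays.

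Secreted cytokines and chemokines included genes that read higher, lower or alike at 4 h and 2 h. Of 21 cytokines none was 2-fold higher and 1 was lower (1.01% and 0.508% of all genes), with a median of -0.04. Tnf read 4.19, 9.69 and 9.59 in KO, and Il1b read 2.99, 9.96 and 9.29. The lower gene was Tnfsf9, or 4-1BB ligand, at 2.95, 8.03 and 6.86, with a limma fall (-1.08, SE 0.19, adjusted p = 0.0273). The limma fit called Il18 and Il15 higher, with KO steps of 0.68 and 0.65 beside wild-type steps of 1.26 and 1.18. Of 21 chemokines 3 were 2-fold higher (1.01% of all genes) and 1, Ccl7, was lower (0.508%), with a median of 0.19. Ccl5, a chemokine of T cells and monocytes, read 4.34, 9.42 and 11.09 in KO and 5.71, 10.03 and 11.50 in wild-type. Ccl22, a ligand of CCR4, read 2.66, 3.10 and 4.60, and Cxcl3, a neutrophil attractant, 2.58, 8.07 and 9.52. Limma called all 3 higher, against 1.56% of all genes (adjusted p from 0.00413 to 0.0109). Cxcl1 and Cxcl2 were at 11.63 and 11.06 at 2 h and at 11.28 and 10.95 at 4 h, and Cxcl10 had a KO step of 0.70 and a wild-type step of 0.70.

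The largest differences downward in KO came from genes of varied function, and 16 of the 20 were also at least 2-fold lower in wild-type. None of the 44 listed interferon-stimulated genes was among the 69. Zdhhc14, a palmitoyltransferase, read 8.07, 7.92 and 5.21 in KO and 8.32, 7.90 and 5.25 in wild-type. Both genotypes were close at every time, and limma put its fall at -2.68 (SE 0.15, adjusted p = 0.000625). Of its other 5 probe sets, 3 differed by -1.83 to -2.78 in KO and the other two by -0.38 and -0.03. Fry, a microtubule-binding protein, read 8.92, 8.48 and 6.43 in KO and 8.89, 8.60 and 6.36 in wild-type. Its other probe sets were near background and differed by -0.04 to -0.11. Egr1, an immediate-early zinc finger factor, read 6.59, 7.97 and 6.06 in KO and 7.93, 8.70 and 7.17 in wild-type. It peaked at 2 h in both genotypes, with KO the lower at each time (limma fall -1.72, SE 0.18, adjusted p = 0.00351). Errfi1, a feedback inhibitor of the EGF receptor, and Cd83, a surface marker of activation, likewise peaked at 2 h, at 7.68 and 10.20 in KO, and stood at 6.22 and 8.80 at 4 h.

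Nav2, a neuron navigator protein, read 6.63, 6.62 and 4.93 in KO, and Rcbtb2 6.73, 6.35 and 4.97. A second Rcbtb2 probe set, at 4.53 and 4.32 in KO at 2 and 4 h, differed by -0.20. St6gal1, the sialyltransferase that adds terminal sialic acid to N-glycans, read 6.46, 6.19 and 4.60, and Nceh1, a cholesteryl ester hydrolase, 9.29, 8.74 and 7.42. Wild-type values of these 4 genes at 2 and 4 h were close to those of KO, as for Nav2 at 6.64 and 5.02. Pdgfc, a growth factor, had steps of -1.44 in KO and -1.93 in wild-type, Wwc1, or KIBRA of the Hippo pathway, -1.61 and -1.31, and Sirpb1a, a signal regulatory protein, -1.55 and -1.66. The 4 genes of the 20 that did not reach 2-fold in wild-type were Fbxo32, Tceal7, Ccl7 and Jakmip1. Fbxo32, the ubiquitin ligase atrogin-1, read 7.54, 5.76 and 3.92 in KO and 7.17, 4.45 and 3.71 in wild-type. Wild-type stood closer to its 4 h level at 2 h, with a step of -0.74, while KO differed by -1.79 from 0 to 2 h and by -1.83 from 2 to 4 h. Other Fbxo32 probe sets had smaller KO steps, of -0.77 and -0.33. Ccl7, a monocyte chemokine that binds CCR2, read 4.96, 6.79 and 5.43 in KO and 3.96, 5.35 and 5.36 in wild-type, so the KO array at 2 h stood apart. Tceal7 read 4.91, 5.32 and 3.95 in KO and stayed between 3.33 and 3.46 in wild-type. Limma called 17 of the 20 lower, though they were picked on KO arrays that the fit also uses. Tceal7 (adjusted p = 0.239), Ccl7 (0.359) and Jakmip1 (0.116) were not called.

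**Figure D4:**
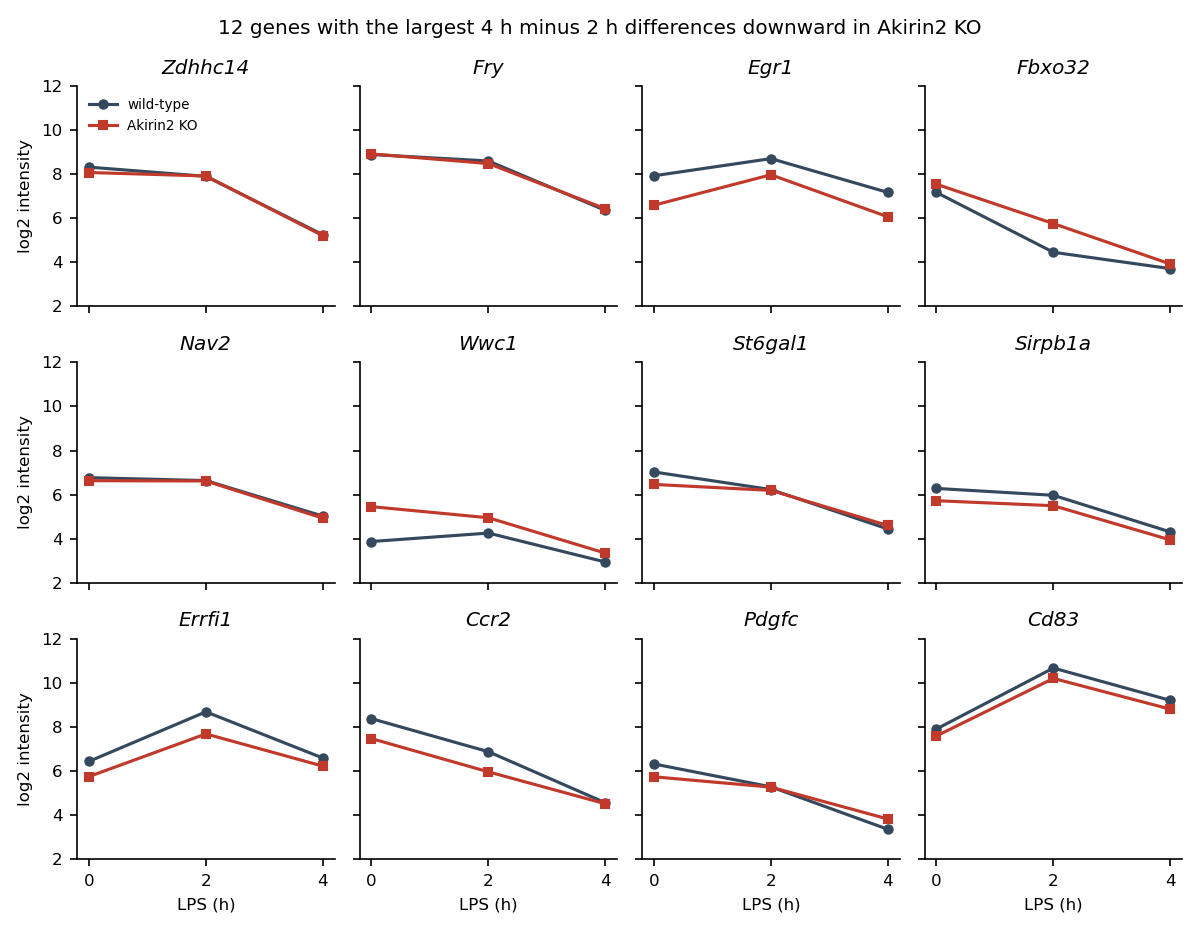
Log2 intensity (y axis) at 0, 2 and 4 h of LPS (x axis) for the 12 genes with the largest 4 h minus 2 h differences downward in Akirin2 KO; dark circles are wild-type and red squares Akirin2 KO, with 1 array per point. Zdhhc14, Fry and Nav2 nearly coincide between genotypes, Egr1, Errfi1 and Cd83 peak at 2 h, and Fbxo32 is higher in KO at 2 h.

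Among genes of signalling and its feedback, Egr1 and Dusp5 were past 2-fold lower in KO and none was past 2-fold higher. Of all genes 0.508% were lower and 1.01% higher, so counts of 0 in lists this short lie near these shares. Of 17 NF-kB subunits and feedback genes none was past 2-fold and 4 lay above 0 (53.1% of all genes), with a median of -0.13. Nfkbia, the IkB-alpha inhibitor, read 10.27, 12.32 and 12.20, Nfkbiz, or IkB-zeta, 5.85, 9.74 and 9.03, Tnfaip3, or A20, 5.43, 8.48 and 7.97, and Rel 4.27, 5.52 and 4.85. Limma called none of the 17. Of 23 immediate-early genes Egr1 alone was past 2-fold, and 7 lay above 0 (median -0.15). Fos read 9.27, 8.58 and 8.23 in KO, and Jun 8.89, 8.28 and 8.58. Myc read 5.27 at 2 and 4 h in KO, but 5.24 and 4.36 in wild-type. Of 11 MAP kinase feedback genes Dusp5, a nuclear ERK phosphatase, was the only gene past 2-fold, at 4.76, 6.04 and 4.81 in KO (limma fall -1.01, SE 0.21, adjusted p = 0.0478). Dusp1, a phosphatase of p38 and JNK, read 11.46 at 2 h and 10.93 at 4 h. None of 8 regulators of mRNA decay was past 2-fold (median -0.31), with Zfp36, or tristetraprolin, at 7.88 and 7.56 and Zfp36l1 at 7.71 and 7.02, the latter with a limma fall (adjusted p = 0.0418). Of 13 SOCS and cytokine signal regulators and 13 SWI/SNF subunits none was past 2-fold; Socs3 read 9.91 and 9.76, and Smarca2, an ATPase of the complex, 7.13 and 6.28.

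Receptors for chemoattractants were among the genes lower at 4 h. Of 16 chemoattractant and lipid receptors 3 were at least 2-fold lower (0.508% of all genes), 1 was higher and the median was -0.30, and limma made the same number of calls in each direction. Ccr2, the receptor of the monocyte chemokines Ccl2 and Ccl7, read 7.47, 5.96 and 4.51 in KO and 8.37, 6.87 and 4.56 in wild-type. The genotypes met at 4 h, after steps of -1.45 and -2.32; the 3 probe sets that were not used lay near background and differed by -0.07 to -0.22 in KO. Cxcr4, the receptor of Cxcl12, read 10.71, 9.35 and 8.16 in KO, and C3ar1, the receptor of complement C3a, 10.71, 10.27 and 9.19. The higher gene was Fpr2, a formyl peptide receptor, at 7.002, 9.46 and 10.50. Ccl2 itself read 5.95, 7.71 and 6.80, a step of -0.91 that limma did not call (adjusted p = 0.0728). Of 8 RGS genes Rgs1, which dampens G protein signalling, was past 2-fold, at 8.02, 7.66 and 6.43. Among 21 Toll-like receptors and adaptors none was past 2-fold in KO, while limma called Tlr1 (7.68 and 8.43) and Tlr3 (6.36 and 7.01) higher.

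Most antigen presentation genes of class I read higher at 4 h, and most of class II did not. Of 13 class I and immunoproteasome genes 2 were past 2-fold higher (1.01% of all genes), 11 lay above 0 (53.1%) and limma called 5 higher (1.56%), with a median of 0.55 in KO and 0.60 in wild-type. Nlrc5, the transactivator of class I genes, read 7.60, 7.39 and 8.61 in KO and 7.49, 7.20 and 9.39 in wild-type, so its steps were 1.22 and 2.19. Tap1, the peptide transporter, read 4.75, 5.18 and 6.33, with a step of 1.15 against 1.34, and Psmb8, an immunoproteasome subunit, had steps of 0.69 and 1.29. None of 8 class II genes was past 2-fold (median -0.11), with Cd74 at 10.02 and 9.79. Of 10 co-stimulation and adhesion genes, Cd83 and Cd86 were past 2-fold lower in KO. Cd86 read 4.87, 5.002 and 3.97, while its second probe set differed by -0.30. Cd40 and Cd274, or PD-L1, were called higher by limma, with KO steps of 0.79 and 0.61 and wild-type steps of 0.77 and 1.59.

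Metabolic and protein turnover lists differed in sign, with NRF2 targets and cholesterol synthesis genes mostly above 0 and cholesterol efflux genes mostly below. Of 15 NRF2 targets, which defend against oxidants, 14 lay above 0 (53.1% of all genes) and 2 were past 2-fold higher (1.01% of all genes), with a median of 0.40. Slc7a11, the cystine transporter, read 3.79, 7.60 and 9.28 in KO and 4.21, 7.98 and 9.27 in wild-type (limma rise 1.48, SE 0.17, adjusted p = 0.00496), and Nqo1, a quinone reductase, read 5.40, 5.24 and 6.36 against 5.91, 6.48 and 6.95. Hmox1, haem oxygenase 1, read 8.72, 9.56 and 10.26. Of 15 cholesterol synthesis genes 12 lay above 0, with a median of 0.59 in KO and 0.60 in wild-type. None was past 2-fold; limma called 4 higher, among them Fdft1, or squalene synthase (6.34 and 7.19 in KO), and Cyp51, lanosterol demethylase (5.61 and 6.42). Of 9 cholesterol efflux and LXR target genes 2 lay above 0 (median -0.20), and Abcg1, a sterol transporter, was past 2-fold lower, at 9.24, 8.33 and 7.07 (limma fall -1.34, SE 0.18, adjusted p = 0.00906), while Abca1 read 9.40 and 9.03. In the constitutive proteasome list, 30 of 32 genes lay above 0 (53.1% of all genes), with a median of 0.24, and in the ribosome biogenesis list 14 of 16, with a median of 0.32. Neither list had a gene past 2-fold or called by limma. With arrays centred, which moved the median of all KO differences from 0.02 to -0.07, the medians of these lists were 0.15 and 0.23. Among 17 ER stress and ATF4 genes Asns, asparagine synthetase, alone was past 2-fold, at 6.21, 6.35 and 7.58, whereas Ddit3 and Trib3 differed by 0.22 and 0.13. The medians of 16 glycolysis genes (0.08), 44 ribosomal proteins (0.02) and 75 respiratory chain genes (0.04) turned below 0 when arrays were centred.

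**Figure D5:**
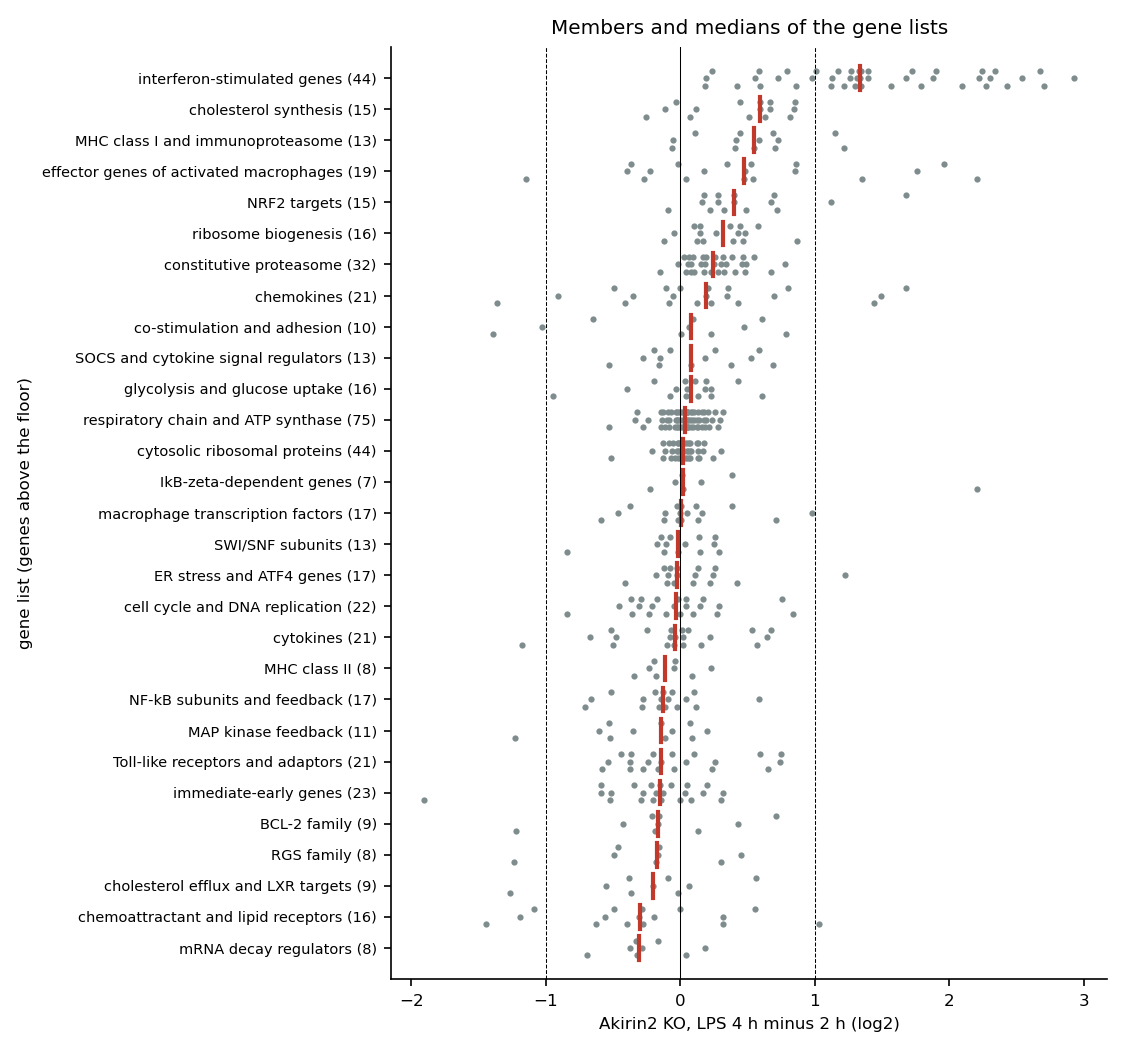
Akirin2 KO LPS 4 h minus 2 h (log2, x axis) for the members of 29 gene lists (y axis, with the number of genes above the floor); grey points are genes from 1 array per condition, red bars are list medians and dashed lines mark 2-fold. The interferon-stimulated genes have a median of 1.33, and the other medians lie between -0.31 and 0.59.

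In the lists of cell survival, cycle and identity genes, Bcl2l11, Mertk and Cd28 were past 2-fold in KO. They were lower at 4 h, as were 0.508% of all genes. Of 9 BCL-2 family genes Bcl2l11, which encodes the death-promoting BIM, was lower at 4 h, at 8.44, 9.40 and 8.18, and limma called it lower and Bid higher. The other probe sets of Bcl2l11 differed by -0.57 to -0.80 in KO, short of 2-fold. None of 22 cell cycle genes was past 2-fold; Mki67 read 7.22 and 6.37 and Ccnd2 3.47 and 4.23. None of 17 macrophage transcription factors was past 2-fold, with Spi1, or PU.1, at 7.23 and 7.35 and Irf8 at 4.35 and 5.33. A second Irf8 probe set read 4.42 and 4.34, so the 2 probe sets disagreed. Among 13 macrophage markers Mertk, a receptor for apoptotic cells, differed by -1.08, and Mrc1, the mannose receptor, by -0.95, the latter with a limma fall (adjusted p = 0.0199). The mean of the macrophage markers was 7.88 at 2 h and 7.66 at 4 h in KO, beside 8.24 and 7.94 in wild-type; the part of cell composition in these differences was not tested. Cd28, of the T and NK cell list, differed by -1.15 in KO (4.86 and 3.71), while Cd3e read 4.17 and 3.94 and Cd8a stayed near background. A second Cd28 probe set differed by -0.07 in KO.

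Some genes passed 2-fold in KO with little difference in wild-type. Of the 137 higher genes 12 had a wild-type step within 0.5 of 0, and of the 69 lower genes 11 had, against 86.7% of all genes. Examples chosen after their values were seen were Skp2, an F-box protein of the cell cycle, at 4.28, 3.38 and 4.54 in KO and 4.70, 3.94 and 3.90 in wild-type, and Ifi44l, an interferon-induced gene, at 2.82, 2.78 and 4.02 against 2.66, 2.58 and 2.84. Ifitm1, an interferon-induced membrane protein, went the other way, at 5.65, 5.19 and 4.04 against 6.14, 5.11 and 4.73. None of these 3 passed the limma threshold (adjusted p from 0.103 to 0.449).

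The difference between the KO and wild-type steps was at least 2-fold for 52 genes with a larger value in KO (0.383%) and 44 with a smaller one (0.324%). With arrays centred these counts were 26 and 79, and the median difference between steps over all genes moved from 0.02 to -0.08. The 10 largest in KO were genes that fell short of 2-fold in KO itself and were lower at 4 h in wild-type. Cluap1, a ciliary protein, read 4.48, 3.84 and 4.48 in KO and 4.46, 4.12 and 3.18 in wild-type, a difference between steps of 1.58. Sting1, the adaptor of cytosolic DNA sensing, read 5.93, 5.76 and 5.75 in KO and 5.69, 5.66 and 4.33 in wild-type. The difference between its steps was 1.33, while on its second probe set the steps were -0.14 and -0.31. Car3, Ndn, Ppcdc, Cep164, Pde7a, Klhl13, Edrf1 and Myl6b made up the rest, and no array read above 6.62 for any of these 10 genes.

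Among the 10 genes with a smaller step in KO, the largest difference was for Agrn, or agrin, at 3.58, 4.26 and 4.85 in KO and 3.93, 4.09 and 6.21 in wild-type. Tmem178, which restrains calcium flux in osteoclasts, read 4.67, 6.04 and 7.70 in KO and 3.76, 4.95 and 7.98 in wild-type. It was called higher by limma (2.35, SE 0.30, adjusted p = 0.00692), and KO was the higher genotype at 0 and 2 h and the lower at 4 h. Mmp9, a gelatinase, read 3.08, 3.30 and 3.93 in KO and 3.99, 3.42 and 5.41 in wild-type, and Ddx60, an interferon-induced helicase, 2.65, 2.95 and 3.02 against 2.89, 2.78 and 4.17. Ccl7, Prr5l, Lhx9, Sox4, Cyp3a11 and Tceal7 made up the rest. The second limma fit set the KO minus wild-type difference at 4 h against that at 0 and 2 h. It called no gene in either direction (0% and 0%), and 829 of 13587 genes had an unadjusted p under 0.05. The adjusted p of these 20 genes ran from 0.69 to 0.954. That fit also uses the 0 h arrays, so it is not a test of the difference between the steps. With 1 array per condition and 1 residual degree of freedom, the lack of calls does not show that the steps were equal.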

How the data were processed

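For 6 Affymetrix mouse arrays the authors deposited 1 log2 value per probe set. The submitters' processing notes name RMA, which corrects background, normalizes by quantiles and summarises probes, and which compresses differences of dim probe sets. The version of RMA is not given in the sources used here. Precision is limited by the number of arrays.

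Of 45101 probe sets, 34958 had a single gene symbol in the platform annotation, 932 had several and 9211 were unnamed here. Each gene took its probe set with the highest mean, kept if any array reached its own median (18194 and 13587 genes). KO 4 h minus 2 h was a plain difference described by a 2-fold rule (log2 of 1). limma 3.58.1 (R 4.3.3, lmFit and eBayes) fitted time and genotype additively to all 6 arrays. A second fit added a term for KO at 4 h, the KO minus wild-type difference at 4 h against that at 0 and 2 h. Adjusted p-values (Benjamini-Hochberg over all genes) were called under 0.05. With 1 array per condition, the 2 genotypes stand in for replicates. The residual of the additive fit is how far the genotypes differ in their time course, and not the spread between mice. Both fits were tested on simulated data. Promoter sequences came from the RefSeq table of GRCm38.p6.

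Members and gene lists were chosen with earlier results of these data known. Genes named were Akirin2, Akirin1 and Lyz2, the 20 largest KO differences each way, the 10 largest differences between steps each way, the 10 largest limma effects each way, and the defining genes and the 4 largest of each list; the text says where others were picked later. Alternatives tried were the floor, the probe set rule, cross-hybridising probe sets, renormalization, centring, the size rule and the limma settings.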

Additional observations from a re-analysis of the deposited data

Results flagged for a closer look

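Probe sets with several gene symbols or none entered no comparison above. Of 6130 of them above the floor, 17 were higher and 11 lower by 2-fold or more in Akirin2 KO at 4 h than at 2 h, with differences from 2.26 to -2.34 on the log2 scale. They were picked out because they hold differences in data that no comparison used; with 1 array per condition they have no test.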

How the results depend on the processing

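With 1 array per condition, no replicate could be left out. No paired analysis was possible because each condition has a single array. Counts are given as genes higher and genes lower at 4 h, and the cause of each change was not tested. Averaging all probe sets of a gene gave 88 and 29 genes in KO (137 and 69 as reported), 111 and 69 in wild-type (183 and 146), 19 shared lower genes (43), 26 steps larger and 15 smaller in KO (52 and 44), and 100 limma falls (151). A 1.5-fold rule gave 484 and 355 in KO, 602 and 658 in wild-type, 264 and 218 shared, and 646 larger and 471 smaller steps. A 3-fold rule gave 35 and 7, 60 and 16, 28 and 4, and 0 and 0. Centred arrays gave 26 larger and 79 smaller steps and 123 limma rises (212), and a floor at the 75th percentile gave 29 smaller steps. The limma fit called 319 and 253 genes at an adjusted p under 0.1, 433 and 442 with trend and robust estimation, and 486 and 438 without the 0 h arrays. The fit with the added term for KO at 4 h called 15 and 11 genes with trend and robust estimation, and 0 otherwise. Of 67 named genes past 2-fold in KO, 49 remained so with averaged probe sets, 66 with centred arrays, and 52 of 59 measured without cross-hybridising probe sets; none changed sign in any of the 6 settings run on the expression values. The median of the interferon-stimulated genes ran from 1.20 to 1.34 over these settings.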
